A study of Mus musculus with 3 samples.

Results

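The BMP and TGF-beta ligands and antagonists described here are 10 genes, taken by gene symbol. They are the TGF-beta ligand genes Tgfb1, Tgfb2 and Tgfb3, the TGF-beta-induced matrix gene Tgfbi, the activin subunit gene Inhba, the BMP ligand genes Bmp2, Bmp4, Bmp5 and Bmp7, and the BMP antagonist gene Grem1. Each had 1 row, so 10 of the 16383 RefSeq transcripts in the authors' table were used. The rows run from NM_001001144 to NM_015816, and transcripts with later identifiers, such as that of Lin28a, were not analysed here. RNA of whole mouse lung on a C57BL/6J/mixed background had been sequenced in 2 libraries labelled DKO and 1 labelled WT. In the DKO animals exon 2 of Lin28a and of Lin28b, which loxP sites flank, had been recombined with the tamoxifen-inducible NKX2.1creERT. That Cre is driven from Nkx2-1, whose product is a master regulator of lung epithelial fate, so the deletion was directed to epithelial cells while the RNA came from the whole lung. Of the WT library the labels give the genotype only, and not whether it carried the Cre or the loxP sites. No age or sex is stated, and nothing says that DKO 1 and DKO 2 are different animals, so p-values measure only the spread between these samples, which may be technical.

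Ligands of the TGF-beta family are secreted dimers that bring together type I and type II receptor kinases, which then phosphorylate SMAD transcription factors. TGF-betas and activins act through a different set of SMADs than BMPs. TGF-betas are secreted in a latent form that must be activated in the matrix, and BMPs are held in check by secreted antagonists such as Gremlin 1. In the developing lung, Bmp4 is known from the distal tips of the branching epithelium, and TGF-beta signalling is known as a brake on branching.

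Levels are RPKM, read numbers divided by transcript length and by library depth. They are per length, but comparison between genes is approximate. Tgfb2 and Bmp4 have 2 RefSeq transcripts each, and every other member has 1. How reads shared between transcripts of a gene were counted is not known here. Depth, inferred from the smallest steps between low values, was about 30700000 reads in DKO 1, 34200000 in DKO 2 and 48700000 in WT. Of the 16383 transcripts, 68% were listed at 0 in every library, and a 0 in this table can be a failed estimate. Lin28b had 0.187 RPKM in DKO 1 and 0.59 in DKO 2, against 0.449 in WT, so the library labelled DKO 2 was not lower. That level is summed over the transcript and the whole lung and checks the labels weakly. DKO 1 and DKO 2 stand throughout for the libraries so labelled. The Y-linked Ddx3y had 5.49 RPKM in DKO 1 and 2.64 in DKO 2, against a listed 0 in WT, where Eif2s3y, Kdm5d and Uty were also at 0, so genotype and sex cannot be told apart. Epithelial markers summed to 31.0 RPKM in DKO 1, 38.0 in DKO 2 and 415.4 in WT. Without Sftpc, surfactant protein C, the sums were 23.5, 37.95 and 46.1 RPKM in the same libraries. Counted without a filter on level, 6 of the 11 markers with a row were below WT in both DKO libraries. Of the same markers 1, Krt19, was above WT in both. Nkx2-1 was listed at 0 in all 3 libraries. Liver markers summed to 11.4, 182.6 and 7.55 RPKM and heart markers to 19.4, 105.7 and 28.9 RPKM in DKO 1, DKO 2 and WT, so both sums were highest in DKO 2, and the source of this RNA was not tested. Each member is therefore given in each DKO library by itself.

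The members were of low abundance. Their mean over the libraries lay between percentile 13.9 (Tgfb1) and percentile 74.6 (Tgfbi) of the 5245 transcripts listed above 0 in at least 1 library. Of the 10, 6 averaged 1 RPKM or more over the libraries and entered the test over all 2066 such transcripts, and Bmp2, Bmp4, Grem1 and Tgfb1 did not. Inhba reached that mean only through DKO 1, and Tgfb3, at 0.498 RPKM in WT, only through the DKO libraries. Bmp7, with a DKO mean of 0.777 RPKM, reached it only through WT. Bmp7, Inhba and Bmp5 lay close to that level, at means of 1.05, 1.04 and 1.01 RPKM. Over all tested transcripts the median absolute difference between DKO 1 and DKO 2 on the log2(RPKM + 1) scale was 0.58. The same quantity was 0.43 for DKO 1 against WT and 0.58 for DKO 2 against WT. DKO 1 thus lay nearer to WT than to DKO 2, and DKO 2 lay about as far from WT as from DKO 1.

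**Figure D1:**
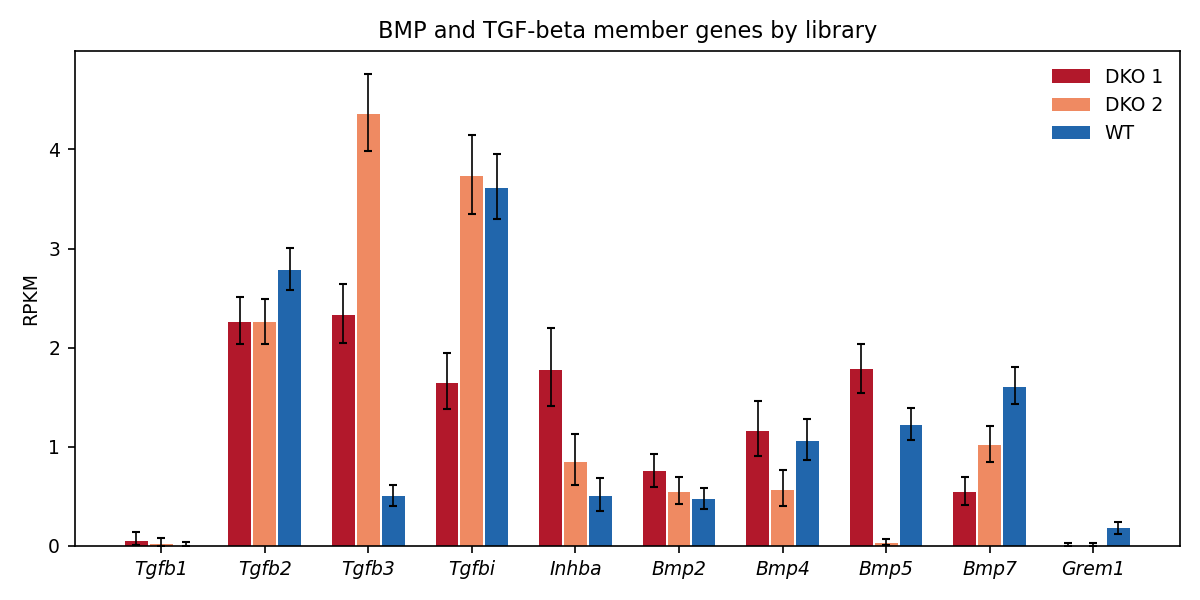
RPKM (y axis, linear) of the 10 member genes in the libraries DKO 1, DKO 2 and WT, 1 bar per library, with 95% exact Poisson intervals that cover counting error only. Tgfb3 stands at 2.33 and 4.36 RPKM in the DKO libraries and 0.498 RPKM in WT, and Bmp5 is near 0 in DKO 2 alone.

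Among the TGF-beta ligand genes as listed, the balance of Tgfb3 and Tgfb2 differed between the DKO libraries and WT. Tgfb3 (NM_009368, chromosome 12, 86056743 to 86079041, GRCm38), which encodes a ligand known for its part in palate and lung development, had 2.33 RPKM in DKO 1 and 4.36 in DKO 2, against 0.498 in WT. Both DKO libraries were above WT, and on the log2(RPKM + 1) scale they were closer to each other than to WT. The corresponding read numbers were about 242, 505 and 82. The ratio to WT was 4.68 in DKO 1 (95% exact binomial interval 3.63 to 6.09) and 8.77 in DKO 2 (6.93 to 11.2), and these intervals cover counting error only. On the log2(RPKM + 1) scale the difference was 1.497 (SE 0.71, 95% interval −0.06 to 3.05, unadjusted p = 0.0576). It did not pass limma with Benjamini-Hochberg adjustment over all transcripts (adjusted p = 0.999). The spread has 1 residual degree of freedom, from the DKO libraries, and was moderated with a prior of 11.2 degrees of freedom from the trend over all tested transcripts, so most of the weight in each SE comes from other transcripts. WT, with no replicate, was taken to vary as much.

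Tgfb2 (NM_009367, chromosome 1, 186622787 to 186709697), a ligand gene needed for heart formation in mice, had 2.26 RPKM in DKO 1, 2.26 in DKO 2 and 2.79 in WT. The DKO libraries were alike and slightly below WT. The ratio to WT was 0.812 in DKO 1 (95% exact binomial interval 0.712 to 0.924) and 0.811 in DKO 2 (0.714 to 0.918). The log2 difference of −0.22 (SE 0.67, limma adjusted p = 0.999) was far within its error. Tgfb1 (NM_011577, chromosome 7, 25687002 to 25705077), the ligand gene that many blood and stromal cells use, was nearly undetected, with 0.0467 RPKM in DKO 1 and 0.014 in DKO 2, against a listed 0 in WT. These values stand for 3, 1 and 0 reads, too few to compare the libraries.

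Tgfb3 made up 50.2% of the summed RPKM of the 3 TGF-beta ligand genes in DKO 1 and 65.7% in DKO 2, against 15.2% in WT. The sum itself was 4.64 RPKM in DKO 1, 6.63 in DKO 2 and 3.28 in WT. The ratio of Tgfb3 to Tgfb2, which is free of the scaling of a library, was 1.03 in DKO 1, 1.93 in DKO 2 and 0.179 in WT. Tgfb1, at 3, 1 and 0 reads, added almost nothing to the sum, so the shares in effect set Tgfb3 against Tgfb2. Whether so little Tgfb1 was measured or its values are failed estimates is not known here. Because Tgfb2 has 2 RefSeq transcripts, the size of these shares and ratios within a library is approximate.

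**Figure D2:**
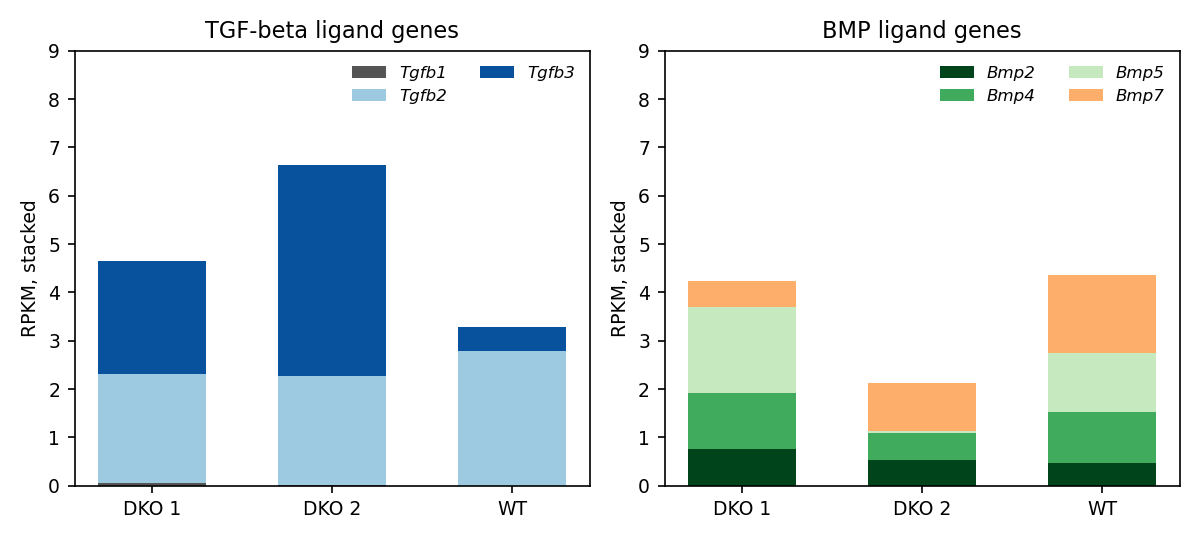
Stacked RPKM (y axes, linear) of the TGF-beta ligand genes (left) and the BMP ligand genes (right) in DKO 1, DKO 2 and WT. The Tgfb3 share is 50.2% and 65.7% in the DKO libraries and 15.2% in WT, and the BMP sum is lowest in DKO 2, at 2.13 RPKM.

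The 3 TGF-beta ligands are close relatives, so the coding ends of their transcripts are shown for how far reads of these genes can be told apart. Each line gives, 5′ to 3′, the last 120 coding bases before the stop codon, which lie in the last coding exon, exon 7, from the GENCODE M21 transcripts (GRCm38). Capitals mark the 78 bases that are the same in all 3 genes. The stretches lie at chr12:86057783-86057902 on the minus strand (Tgfb3), chr7:25704820-25704939 on the plus strand (Tgfb1) and chr1:186625451-186625570 on the minus strand (Tgfb2).
Tgfb3: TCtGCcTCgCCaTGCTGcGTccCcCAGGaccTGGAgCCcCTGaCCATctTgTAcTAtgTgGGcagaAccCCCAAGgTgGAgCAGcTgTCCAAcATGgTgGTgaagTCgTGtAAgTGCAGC
Tgfb1: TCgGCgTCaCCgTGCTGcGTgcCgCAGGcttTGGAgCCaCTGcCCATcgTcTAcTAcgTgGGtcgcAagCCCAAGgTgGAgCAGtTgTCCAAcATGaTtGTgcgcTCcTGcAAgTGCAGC
Tgfb2: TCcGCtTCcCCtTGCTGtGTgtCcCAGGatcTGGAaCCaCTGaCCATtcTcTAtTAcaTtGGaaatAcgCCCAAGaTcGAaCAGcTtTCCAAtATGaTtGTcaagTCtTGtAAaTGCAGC
In this stretch Tgfb3 shared 77.5% of its bases with Tgfb1 and 74.2% with Tgfb2. The longest run of identical bases between the whole Tgfb3 transcript and either paralog was 15 bases. Other genes annotated in GENCODE overlapped 12.4% of the exon bases of Tgfb3, and the strand setting of the read counting is not known here.

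The 3 tested transcripts whose pair of differences from WT lay nearest to that of Tgfb3, by Euclidean distance over the 2 DKO libraries, were Gm527, Cav2 and Tulp3. Cav2, a caveolin gene, had 0.993 RPKM in DKO 1 and 2.46 in DKO 2, against a listed 0 in WT. Tulp3, a gene of primary cilium transport, had 1.91 RPKM in DKO 1, 2.9 in DKO 2 and 0.201 in WT. Gm527 had 1.11 and 2.7 RPKM in the DKO libraries and was listed at 0 in WT. With 3 libraries many transcripts share a pattern, and Tgfb3 itself ranked 74 among the 2066 tested transcripts by the smaller of its differences from WT, and 59 among those above WT.

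Inhba and Tgfbi differed between the DKO libraries by more than a factor of 1.5 each, which was not particular to them. The ratio of DKO 2 to DKO 1 was 1.87 for Tgfb3 (95% exact binomial interval 1.6 to 2.19). It was 1.87 for Bmp7 (1.37 to 2.58), 0.48 for Bmp4 and 0.013 for Bmp5. Inhba (NM_008380, chromosome 13, 16004256 to 16031609) encodes the subunit of activin A, a ligand that uses the TGF-beta set of SMADs. It had 1.77 RPKM in DKO 1 and 0.841 in DKO 2, against 0.497 in WT. Both DKO libraries were above WT, with DKO 2 the nearer. The ratio to WT was 3.56 in DKO 1 (95% exact binomial interval 2.39 to 5.4) and 1.69 in DKO 2 (1.07 to 2.69). The log2 difference was 0.59 (SE 0.84, limma adjusted p = 0.999).

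Tgfbi (NM_009369, chromosome 13, 56609586 to 56639359) encodes a secreted matrix protein that was named for its induction by TGF-beta and is no ligand. It had 1.64 RPKM in DKO 1 and 3.73 in DKO 2, against 3.61 in WT. DKO 1 was below WT, and DKO 2 lay at the level of WT. The ratio to WT was 0.455 in DKO 1 (95% exact binomial interval 0.374 to 0.552) and 1.03 in DKO 2 (0.899 to 1.19). Tgfbi thus did not follow the order of Tgfb3, and its log2 difference of −0.38 (SE 0.68, limma adjusted p = 0.999) was set by DKO 1. Its side of WT in DKO 2 depended on the scaling, since DKO 2 was below WT with median scaling, quantile normalization and rescaling to TPM.

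Among the BMP ligand genes, Bmp7 was the member below WT in both DKO libraries. Bmp7 (NM_007557, chromosome 2, 172868012 to 172940321), a ligand gene of epithelia known for its role in kidney and eye, had 0.542 RPKM in DKO 1 and 1.01 in DKO 2, against 1.61 in WT. The ratio to WT was 0.337 in DKO 1 (95% exact binomial interval 0.252 to 0.446) and 0.63 in DKO 2 (0.507 to 0.779). The log2 difference was −0.57 (SE 0.82, limma adjusted p = 0.999). The sums of the epithelial markers given above, with and without Sftpc, were also below WT in both DKO libraries. Not every marker was, since Krt19 had 6.17 RPKM in DKO 1 and 9.11 in DKO 2, against 3.08 in WT. The part of these markers in the Bmp7 values was not tested. In whole lung, fewer cells of a type and less RNA per cell cannot be told apart.

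Bmp5 (NM_007555, chromosome 9, 75775365 to 75900316), a ligand gene of mesenchyme in several organs, had 1.78 RPKM in DKO 1 and 0.0231 in DKO 2, against 1.22 in WT. DKO 1 was above WT, and Bmp5 was nearly absent from DKO 2, with about 3 reads against 209 in DKO 1 and 227 in WT. The ratio to WT was 1.46 in DKO 1 (95% exact binomial interval 1.21 to 1.77) and 0.019 in DKO 2 (0.00385 to 0.0557). Among the tested members it had the widest gap between the DKO libraries, 1.44 on the log2(RPKM + 1) scale, and its log2 difference from WT was −0.40 (SE 0.92, limma adjusted p = 0.999). The noncoding gene Gm26903 overlaps 49.1% of its exon bases in GENCODE, so its reads are uncertain.

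Bmp4 and Bmp2, close relatives among the BMPs, were under the level for testing. Bmp4 (NM_007554, chromosome 14, 46383525 to 46390669) had 1.16 RPKM in DKO 1, 0.557 in DKO 2 and 1.06 in WT. DKO 1 lay at the level of WT, with a ratio of 1.09 (95% exact binomial interval 0.793 to 1.47), and DKO 2 was below it, with a ratio of 0.525 (0.35 to 0.755). Bmp2 (NM_007553, chromosome 2, 133552159 to 133562896) had 0.75 RPKM in DKO 1, 0.541 in DKO 2 and 0.467 in WT. In DKO 2 it did not differ from WT beyond counting error, with a ratio of 1.16 (0.825 to 1.62), and in DKO 1 the ratio was 1.61 (1.17 to 2.21). Without a filter on low values, the limma adjusted p was 0.939 for Bmp4 and 0.93 for Bmp2. The 4 BMP ligand genes together had 4.23 RPKM in DKO 1, 2.13 in DKO 2 and 4.35 in WT. The sum in DKO 1 was thus near that of WT, with more Bmp5 and less Bmp7.

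Grem1 (NM_011824, chromosome 2, 113748675 to 113758648), whose product binds BMP2, BMP4 and BMP7 and keeps them from their receptors, was listed at 0 in DKO 1 and DKO 2 and had 0.175 RPKM in WT, about 35 reads. It was the member found in WT alone. At these depths, 0 reads allow up to 0.029 RPKM in DKO 1 and 0.026 in DKO 2 (upper 95% exact Poisson limits, for counting error only), whereas the interval in WT was 0.122 to 0.244 RPKM. Because a 0 in this table can be a failed estimate, no fold is given. Without a filter, limma gave an unadjusted p of 0.0104 and an adjusted p of 0.773, from DKO values that are both 0 and so have no spread of their own.

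The order of the levels differed between the genotypes more for some genes than for others. In the DKO libraries the means were 3.35 ± 1.44 RPKM for Tgfb3, 2.69 ± 1.48 for Tgfbi, 2.26 ± 0.00329 for Tgfb2 and 1.31 ± 0.656 for Inhba (SD, n = 2). Then came Bmp5 at 0.901 ± 1.24, Bmp4 at 0.859 ± 0.427, Bmp7 at 0.777 ± 0.332 and Bmp2 at 0.645 ± 0.147 (SD, n = 2). Neighbours in that order differed by less than the larger of their SDs, other than Tgfb2 and Inhba, whose means differed by more than the SD of either. In WT the order was Tgfbi, Tgfb2, Bmp7, Bmp5, Bmp4, Tgfb3, Inhba, Bmp2, Grem1 and Tgfb1. There the Poisson intervals of Bmp5 and Bmp4 overlapped, as did those of Tgfb3, Inhba and Bmp2, while those of Tgfbi, Tgfb2 and Bmp7 were separate from each other.

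**Figure D3:**
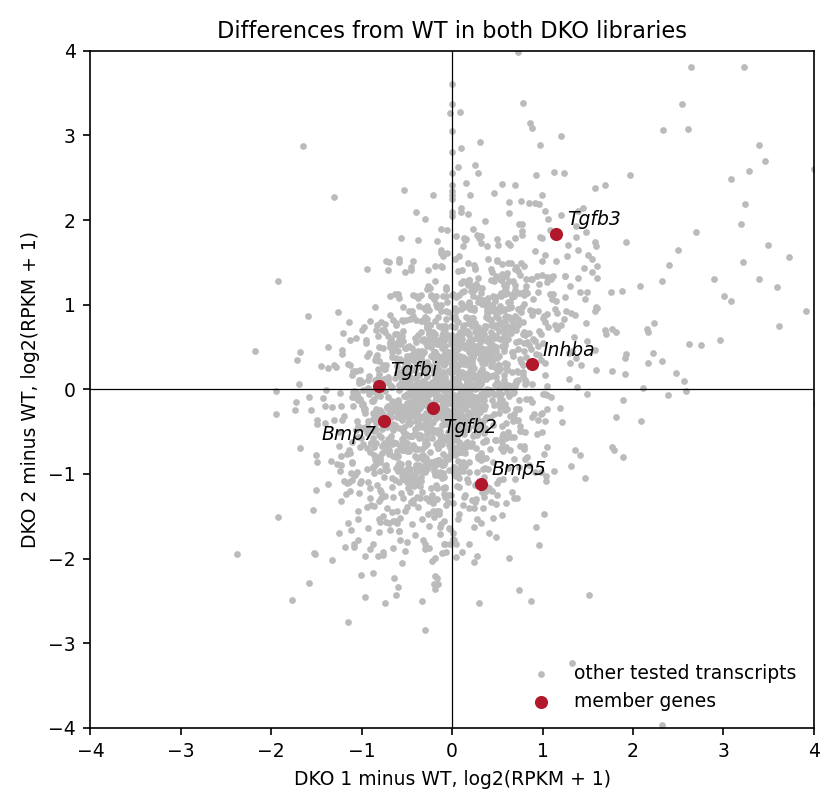
Difference from WT on the log2(RPKM + 1) scale in DKO 1 (x axis) and DKO 2 (y axis) for the 6 tested members (red, labelled) and the other tested transcripts (grey), with 10 transcripts beyond the axes. Tgfb3, at 1.15 and 1.84, is in the upper right, and Bmp5, at 0.33 and −1.12, is in the lower right.

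Counted over the 6 tested members, 0 passed limma at an adjusted p under 0.05, and 0 had an unadjusted p under 0.05. Of all 2066 tested transcripts, 2 (0.0968%) passed and 66 had an unadjusted p under 0.05. By size, 1 member, Tgfb3, was at least 2-fold above WT in both DKO libraries with these closer to each other than to WT, as were 3.19% of all tested transcripts. No member was 2-fold below by the same rule, which 1.5% of all transcripts met. With rescaling to TPM, the split over all transcripts was 71 higher and 67 lower, against 66 and 31 here, and Tgfb3 met the rule there too. Tgfb3 and Inhba were above WT in both DKO libraries, 2 of 6 beside 32.1% of all tested transcripts, and Bmp7 and Tgfb2 were below in both, 2 of 6 beside 31.0%. These shares are near the background. The shares and the count by size depend in part on the filter, which Tgfb3 and Inhba passed through DKO libraries and Bmp7 through WT. The median log2 difference of the tested members was −0.30, and that of all tested transcripts −0.01. The members' median was 0.06 in DKO 1 alone, −0.09 in DKO 2 alone and −0.56 with rescaling to TPM.

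The other genes of the pathway were taken from lists of 109 genes, of which 86 had a row and 24 were tested. Genes without a row were not analysed here. None of the 24 passed limma (adjusted p of 0.999 for each), and 1 had an unadjusted p under 0.05. Of these 24, 8 were above WT in both DKO libraries, beside 32.1% of all tested transcripts, and 5 below in both, beside 31.0%. Their median log2 difference was 0.16. None of the 21 other ligand genes with a row reached the level for testing, and 10 of them were listed at 0 throughout.

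Among the other antagonists, the follistatin genes were the 2 tested. Fst, which encodes an activin-binding protein, had 0.446 RPKM in DKO 1, 2.46 in DKO 2 and 0.518 in WT, so DKO 2 stood alone. Fstl1, a secreted relative, was the most abundant, at 41.6, 48.9 and 44.2 RPKM in DKO 1, DKO 2 and WT.

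The 4 tested receptor genes were on either side of WT, other than Acvr2b. Acvr2b, an activin type II receptor, had 2.66 RPKM in DKO 1, 3.25 in DKO 2 and 4.02 in WT. The TGF-beta type I receptor gene Tgfbr1 had 3.76 RPKM in DKO 1, 2.49 in DKO 2 and 3.0 in WT. Its partner Tgfbr2 was listed at 0 in every library. The BMP receptor genes Bmpr1a (5.99 RPKM in DKO 1, 2.37 in DKO 2 and 3.38 in WT) and Bmpr2 (2.14 in DKO 1, 1.01 in DKO 2 and 1.06 in WT) were highest in DKO 1.

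In the latency and activation list 5 genes were tested, and Thbs1 and Fbn2 were below WT in both DKO libraries. Thbs1, whose product thrombospondin 1 activates latent TGF-beta, had 6.76 RPKM in DKO 1 and 1.97 in DKO 2, against 10.1 in WT (log2 difference −1.21, SE 0.73, limma adjusted p = 0.999). Fbn2, a fibrillin gene of matrix fibrils that hold latent ligands, had 4.19 RPKM in DKO 1, 5.14 in DKO 2 and 6.44 in WT. Of the 3 tested genes of the SMAD list, Smad4 and Smad1 were close to WT. Smad4, the SMAD shared by both branches, had 5.73 RPKM in DKO 1, 5.82 in DKO 2 and 5.04 in WT, and Smad1, of the BMP branch, had 3.11, 3.27 and 3.7 RPKM in the same libraries. Ski, a co-repressor of SMADs, had 2.12 RPKM in DKO 1, 3.18 in DKO 2 and 1.35 in WT. The median of these 3 was 0.17 on the log2 scale, and −0.03 with rescaling to TPM.

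The targets were uneven between the DKO libraries. Of the BMP targets, the inhibitors of differentiation Id3 and Id1 were far higher in DKO 1 than in DKO 2. Id3 had 476.4 RPKM in DKO 1 and 105.5 in DKO 2, against 35.0 in WT (log2 difference 2.65, SE 0.96, limma adjusted p = 0.999). Id1 had 140.5, 47.2 and 40.6 RPKM in DKO 1, DKO 2 and WT. Id2 had 83.5 RPKM in DKO 1 and 76.7 in WT, with DKO 2 apart at 29.2. These 3 Id genes were the only BMP targets tested. Under the level for testing, Smad6 had 1.22, 0.128 and 1.38 RPKM in DKO 1, DKO 2 and WT. Smad7 had 0.815, 0.461 and 0.708 RPKM, and Msx2 0.121, 0.0947 and 0 RPKM, in the same libraries. Without a filter, 3 of the 7 BMP targets with a row were above WT in both DKO libraries and 1 below in both. Of the 7 tested TGF-beta targets, Acta2, smooth muscle actin, had 7.28 RPKM in DKO 1, 10.97 in DKO 2 and 4.45 in WT, an order like that of Tgfb3. Ccn2, a matrix signalling gene, had 1.1 RPKM in DKO 1, 4.92 in DKO 2 and 0.983 in WT. Tagln, another smooth muscle gene, was below WT, with 14.8, 8.77 and 16.5 RPKM in the same libraries, and Col1a2 had 30.5, 22.6 and 21.3 RPKM.

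**Figure D4:**
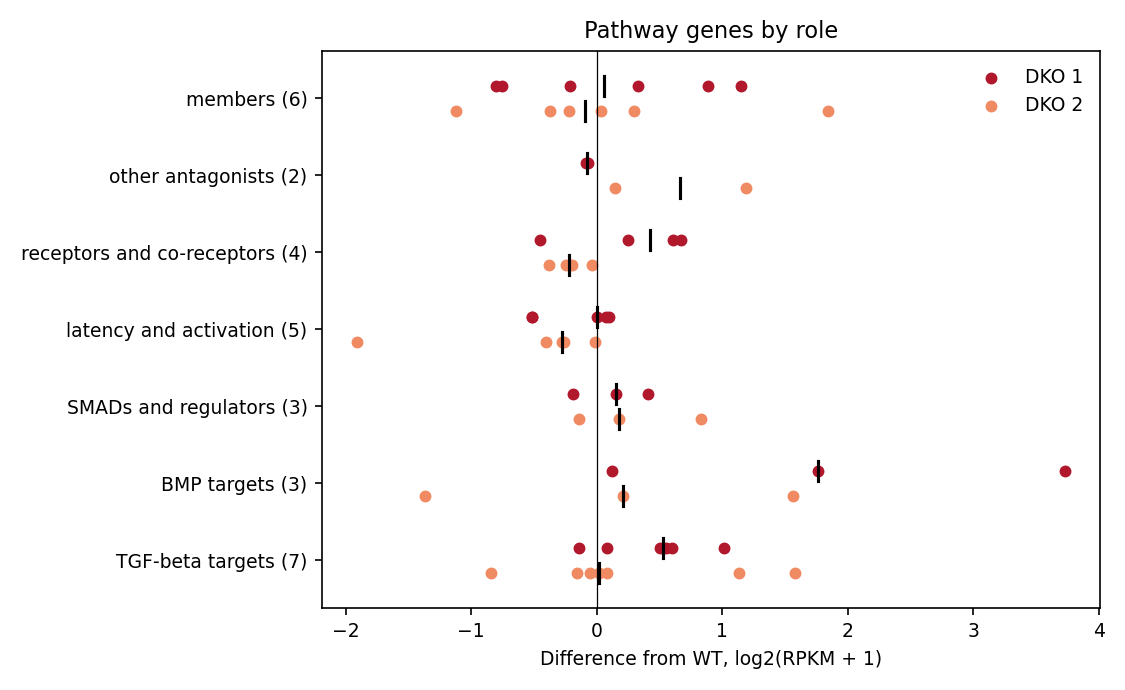
Difference from WT on the log2(RPKM + 1) scale (x axis) for the tested genes of each list (rows, number of genes in brackets), in DKO 1 (upper points) and DKO 2 (lower points), with black ticks at the medians. Among the lists shown the medians of the BMP targets are furthest apart, at 1.76 in DKO 1 and 0.21 in DKO 2. That list holds 3 tested genes, Id1, Id2 and Id3, and both medians are the values of Id1.

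Markers of the cell types that could carry these ligands are given for the whole lists. Their counts are of genes with a row, the rows of a gene summed and no filter on level applied. Of all tested transcripts 32.1% were above WT in both DKO libraries, a share that is filtered and so not on the same basis. Mesenchymal markers summed to 241.1 RPKM in DKO 1, 173.8 in DKO 2 and 195.3 in WT, and 5 of the 13 genes were above WT in both DKO libraries, with Pdgfrb and Tbx4 listed at 0. Mesothelial markers summed to 20.8, 25.7 and 7.93 RPKM in the same libraries, and the 3 of 8 with a row, Krt19, Aldh1a2 and Fgf9, were above WT in both. Krt19 is also in the epithelial list, so it does not tell these cell types apart. Smooth muscle markers summed to 30.1, 26.0 and 26.3 RPKM, with 3 of 6 above WT in both. Endothelial markers summed to 11.3, 14.3 and 10.4 RPKM, with 2 of 7 above WT in both and Pecam1, Emcn and Tek listed at 0. Immune markers summed to 468.5, 232 and 84.35 RPKM, with 6 of 11 above WT in both and Ptprc and S100a9 listed at 0. Of the platelet list, 1 of the 3 genes with a row, Itga2b, was above 0, at 8.43 RPKM in DKO 1, 1.23 in DKO 2 and 0.538 in WT. Erythroid markers summed to 28712, 102770 and 20199 RPKM, with 6 of 9 above WT in both and Alas2, Hba-a1 and Hba-a2 listed at 0. Most of each erythroid sum was Hbb-y, at 25259, 91331 and 18354 RPKM in DKO 1, DKO 2 and WT. The mesothelial, immune, platelet, endothelial, erythroid and liver sums were above WT in both DKO libraries, as Tgfb3 and Inhba were. A sum can be set by 1 gene, and not every gene of these lists was above WT in both. The endothelial sums lay close to WT. Their part in these results was not tested.

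RefSeq promoters (GRCm38.p6, 250 bases before to 50 after a gene's start) were matched by symbol for 7 of the 10 members. Of the tested members that lay above WT, or below it, in both DKO libraries, Inhba and Tgfb2 had an entry, and their promoters are shown as the regulatory sequence of a member above and a member below WT. Capitals mark matches of TATAAA and CAGACA on either strand. The Inhba promoter is at chr13:16011601-16011900 on the plus strand, and the Tgfb2 promoter at chr1:186705940-186706239 on the minus strand. Both starts that the table uses lie inside the gene spans given above and not at their outer ends.
Inhba: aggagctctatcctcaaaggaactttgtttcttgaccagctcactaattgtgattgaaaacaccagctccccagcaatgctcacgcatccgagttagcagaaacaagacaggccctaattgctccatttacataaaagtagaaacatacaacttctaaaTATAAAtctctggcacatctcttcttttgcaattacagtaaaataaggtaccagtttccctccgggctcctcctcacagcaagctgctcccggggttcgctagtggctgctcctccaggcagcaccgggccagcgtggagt
Tgfb2: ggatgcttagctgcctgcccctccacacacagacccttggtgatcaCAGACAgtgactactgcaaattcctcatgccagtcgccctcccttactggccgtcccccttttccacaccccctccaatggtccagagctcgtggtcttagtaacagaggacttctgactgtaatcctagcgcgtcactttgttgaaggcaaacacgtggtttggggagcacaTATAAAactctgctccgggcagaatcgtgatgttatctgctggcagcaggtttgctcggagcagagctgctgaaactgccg
TATAAA was found in both, and in 13.6% of all 32817 promoters of this length. The match lay at different places, −91 from the start in Inhba and −31 in Tgfb2. CAGACA, a motif that holds the SMAD-binding letters CAGAC, was found in Tgfb2 and in 21% of all promoters. The shorter CAGAC was not searched or marked by itself. The further motifs searched on both strands were TGACGTCA, GTCTAGAC and GGCGCC. Neither promoter held any of these 3, which 1.79%, 0.213% and 11.9% of all promoters held. Tgfb3, Bmp7 and Bmp2 are named only.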

How the data were processed

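Whole-lung RNA of 2 DKO libraries and 1 WT library was profiled by RNA-seq. Per the labels' protocols, Trizol RNA was turned into libraries with a SMARTer low-input kit. Per the submitters' processing notes, cutadapt, TopHat2, HTSeq and edgeR were used with build mm10. Versions, annotation, strand setting and scaling total were not given in the sources used here. RPKM values were what the authors deposited, with 1 column per library and 1 row per RefSeq transcript.

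Names came from a RefSeq table (GRCm38.p6) and GENCODE M21, which matched 16228 of 16383 transcripts. RPKM times transcript length, divided by its commonest low value, gave approximate reads. Of values under 100 reads, 45.2% (DKO 1), 43.8% (DKO 2) and 45.7% (WT) lay within 0.05 of a whole read, so reads served for intervals only. Those intervals cover counting error, since PCR copies are not independent molecules.

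Values were analysed as log2(RPKM + 1), which understates changes of low genes, for transcripts that averaged 1 RPKM or more. Limma 3.58.1 (R 4.3.3) was fitted two-sided, with a mean-variance trend and Benjamini-Hochberg adjustment. Residual degrees of freedom were 1, and prior degrees of freedom 11.2. The procedure was tested on simulated data with differences larger than those of the members, so that test does not show whether changes of their size can be found.

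The members and lists were chosen with earlier results of these data known. The genes named were every member, of each other list the tested members (the 4 with the largest shared difference where over 4 were tested), and the 3 transcripts nearest to Tgfb3. Tgfbr2, Smad6, Smad7, Msx2, Hbb-y, the marker genes listed at 0 and the genes that check the labels were named after their values were seen. Alternatives were other pseudocounts, filters, scalings, moderation without a trend, a 1.5-fold rule and leaving out each DKO library.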

Additional observations from a re-analysis of the deposited data

How the results depend on the processing

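Over all transcripts limma called 2, and 13 with a pseudocount of 0.1, 1 with a pseudocount of 5, 10 with a filter at 5 RPKM and 16 with median scaling. It called 0 without a filter, with quantile normalization and with rescaling to TPM, where 260, 45 and 38 had an unadjusted p under 0.05. No member and no other pathway gene passed under any of the 8 alternatives fitted. With a pseudocount of 0.1, 1 of the 6 tested members had an unadjusted limma p under 0.05, and none had in the other fits. The limma adjusted p of Tgfb3 lay between 0.922 and 0.999 over these fits. No member reached the filter at 5 RPKM. The size rule gave 66 higher and 31 lower transcripts. It gave 118 and 48 with a pseudocount of 0.1, 28 and 6 with a pseudocount of 5, 39 higher and 11 lower with a filter at 5 RPKM, and 157 and 118 at 1.5-fold. The lower count alone was 49 without a filter and 67 with TPM. With 1 DKO library left out, 166 to 311 were higher and 114 to 244 lower, with no test. Tgfb3 met the size rule under 5 of the 6 pseudocounts and scalings, and missed it with a pseudocount of 5, where its log2 difference was 0.59. The median log2 difference of all tested transcripts was −0.22 with TPM. Relative to it Tgfb3 stood at 2.05 and Bmp7 at −0.75. With each DKO library left out in turn, the log2 difference ran between −0.80 and 0.037 for Tgfbi (above 0 without DKO 1), between −0.40 and 0.068 for Bmp4 and between −1.12 and 0.33 for Bmp5 (both above 0 without DKO 2). For the other members shown, the sign of the log2 difference was the same in every alternative. In DKO 2 by itself, Bmp2 was above WT as deposited (0.07) but below it with rescaling to TPM (−0.09). No paired analysis was possible because WT has a single library, so the groups share fewer than 2 replicate numbers. At 30700000 to 48700000 reads, Tgfb1 and Grem1 had at most 35 reads in a library.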
